A study of Drosophila melanogaster with 19 samples.

Results

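Peak lists from S2-DRSC cell nuclei treated with a low or a high amount of an adenine methyltransferase were compared across enzymes. The low dose was 0.6 U of Hia5, EcoGII, Btr192IV or EcoGI (4 libraries, 1 per enzyme). The high dose was 6 U of Hia5 (replicates 1 and 2), EcoGII or Btr192IV (4 libraries), so that 8 of the 19 libraries of the series entered and 3 of the 4 enzymes were present at both doses. A gene was called low-dose when it had a peak within 500 bp of either end in at least 3 libraries at 0.6 U and in at most 1 at 6 U. The mirrored rule gave the high-dose genes, and stable genes had such a peak in at least 3 libraries of each dose. Of 13946 protein-coding genes, 729 were low-dose, 14 were high-dose and 371 were stable. The same rule was applied to the 16996 regions obtained by merging the peaks of the 8 libraries wherever they overlapped.

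S2-DRSC (S2-DSRC in the sample titles) is an established embryonic cell line of Drosophila melanogaster with hemocyte-like character. All 8 libraries shared the cell line, the enzyme incubation of 20 min at 37 °C, the extraction of nuclei with a mild detergent before it, and the antibody against N6-methyladenine. The controls of the series were an untreated immunoprecipitation and a DNA input, with 1 library each. No label states that replicate libraries came from separate cultures, so a p-value here reflects no more than how far these libraries scatter, in part perhaps for technical reasons.

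Bacterial N6-adenine methyltransferases add a methyl group to adenines in DNA that they can reach. Added to nuclei, such an enzyme marks open DNA, since nucleosomes and bound proteins shield the bases beneath them. Fly DNA carries little of this mark of its own, and promoters of active genes are the best known open sites. An antibody against the modified base then recovers the marked short fragments, and places rich in them appear as peaks.

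Relative depth, read from the step between the heights in a list, ran from 7.28 to 11.9 in 7 of the 8 libraries and was 25.5 in EcoGII at 6 U. The untreated library (relative depth 11.3) held 1974 peaks and the input (0.673) held 32. Hia5 6 U replicate 1 and both controls carry library numbers from another stretch of numbers than the other 7 libraries. What these numbers stand for is not stated. Among 15 hemocyte genes, 10 had a gene-end peak in at least 1 of the 8 libraries, but the defining markers Hml, NimC1 and eater had none. The count was 2 of 13 for neuronal, 3 of 13 for muscle, 2 of 6 for gut, 1 of 8 for germline and 1 of 9 for fat body markers. Over all protein-coding genes that share was 38.03%. These are sites of methylation and give no level of expression.

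Each enzyme given at both doses placed a smaller share of its peaks at gene ends at 6 U than at 0.6 U. The gene-end share at 0.6 U was 48.9% for Hia5, 45.4% for EcoGII, 34.7% for Btr192IV and 36.7% for EcoGI. At 6 U it was 29.2% and 27.6% for the Hia5 replicates, 28.8% for EcoGII and 22.3% for Btr192IV. The lowest library at 0.6 U lay above the highest at 6 U, and all 8 lay above the 13.8% of the untreated library. Gene-end shares averaged 41.4% ± 6.80 for the low dose and 27.0% ± 3.18 for the high dose (SD, n = 4 each). The difference of -14.4 percentage points had an exact two-sided permutation p of 0.0286, the smallest that 4 libraries against 4 allow. It did not pass once these exact permutation p-values were adjusted over 5 measures by Benjamini-Hochberg (adjusted p = 0.0714). Without Hia5 6 U replicate 1, the library from the other stretch of numbers, the difference was -15.2 percentage points (exact permutation p = 0.0571). An exact permutation of doses only within the 3 enzymes given at both doses allows no p below 0.0833.

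Peaks outside genes took the opposite course. They made up 9.93% of the Hia5 list, 13.0% of EcoGII, 17.5% of Btr192IV and 18.2% of EcoGI at 0.6 U. At 6 U they made up 26.4% and 23.1% in Hia5, 23.6% in EcoGII and 26.8% in Btr192IV. The doses did not overlap, with means of 14.7% ± 3.91 and 24.99% ± 1.90 (SD, n = 4 each), and the exact permutation test gave p = 0.0286 (adjusted p = 0.0714). In the untreated library 40.4% of the peaks lay outside genes.

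The number of peaks did not follow the dose in the same way for each enzyme. Hia5 had 8080 peaks at 0.6 U and 2856 and 2132 at 6 U, and Btr192IV had 3692 and 1425. EcoGII went the other way, from 6772 peaks at 0.6 U to 13395 at 6 U, and EcoGI had 2916 at 0.6 U. The log2 numbers of peaks, 12.27 ± 0.70 and 11.68 ± 1.41 (SD, n = 4 each), overlapped (exact permutation p = 0.457, adjusted p = 0.457). Overlap with untreated peaks averaged 11.9% ± 4.59 for the low and 19.4% ± 6.65 for the high dose (SD, n = 4 each; exact permutation p = 0.143, adjusted p = 0.238). It was 10.8% and 10.3% in EcoGII at 0.6 U and 6 U, whereas in Hia5 it was 5.87% against 21.2% and 19.7%. Median peak width was 184 bp ± 27.7 and 156 bp ± 31.1 (SD, n = 4 each; exact permutation p = 0.2, adjusted p = 0.25).

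**Figure D1:**
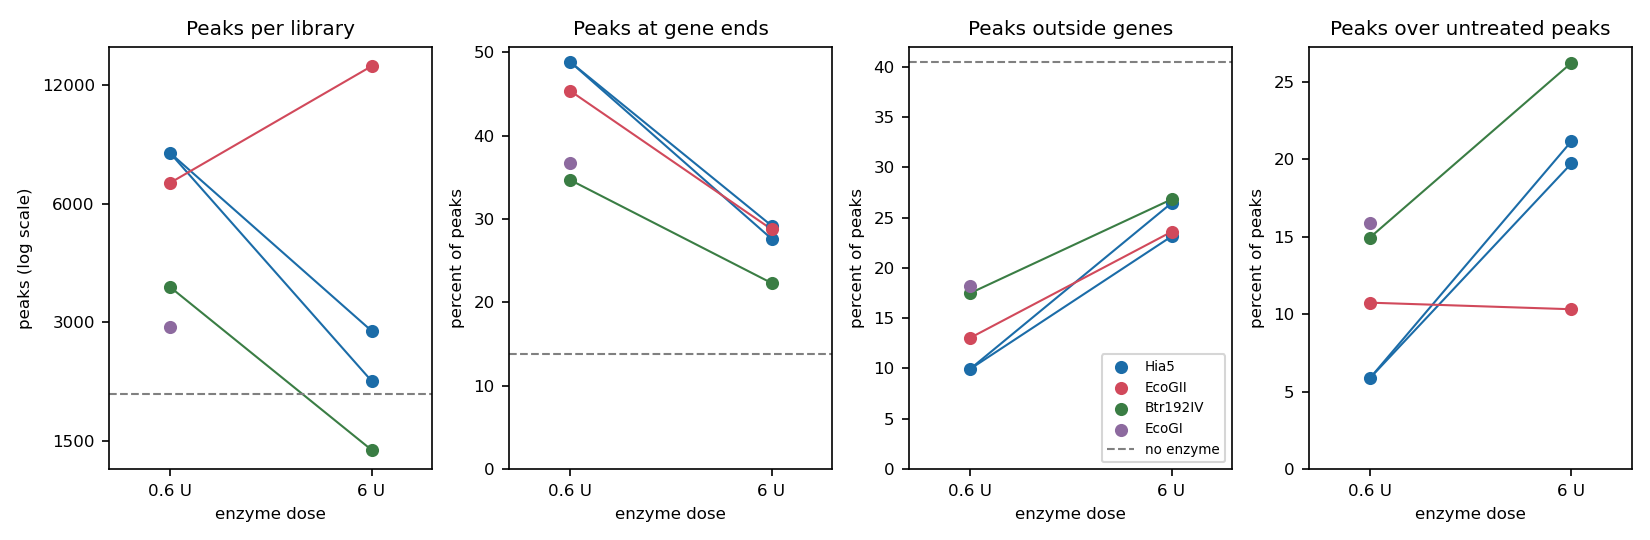
Each point is 1 library at 0.6 U or 6 U, coloured by enzyme, with lines joining the doses of an enzyme. The panels show the number of peaks (log axis), the percent of peaks within 500 bp of a gene end, the percent outside genes and the percent over a peak of the untreated library, and dashed lines give the untreated library's own value. Gene-end shares run from 34.7% to 48.9% at 0.6 U and from 22.3% to 29.2% at 6 U, while EcoGII alone has more peaks at 6 U.

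List length differed between the doses of each enzyme, not always in the same direction. It was held equal in an alternative that kept the 1425 highest peaks of each list. The gene-end shares were then 38.5% for Hia5, 37.3% for EcoGII, 36.5% for Btr192IV and 36.5% for EcoGI at 0.6 U. At 6 U they were 36.1% and 31.5% for Hia5, 34.04% for EcoGII and 22.3% for Btr192IV. The doses still did not overlap, but the difference was -6.19 percentage points, less than in the full lists (exact permutation p = 0.0286, adjusted p = 0.0476). The unadjusted p was the same as in the full lists. Its adjusted value was lower only because overlap with untreated peaks now reached that p as well. The difference rested largely on Btr192IV 6 U, whose list is the shortest and was not trimmed. Without that library it was -3.30 points (exact permutation, adjusted p = 0.0714), with the doses still apart (at most 36.1% against at least 36.5%). Without any 1 library of 0.6 U it did not pass either (exact permutation, adjusted p from 0.143 to 0.238). Peaks outside genes differed by 6.96 points and overlap with untreated peaks by 7.56 points in these lists, with the same p-values, and neither passed without Btr192IV 6 U (4.97 and 5.65 points). These permutations ignored enzyme. An exact permutation of doses only within an enzyme allows no p below 0.0833, so none of these differences could pass that way.

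The 3 gene classes were of very unequal size. Low-dose genes made up 5.23% of the protein-coding genes, high-dose genes 0.1% and stable genes 2.66%. Over all 17807 genes the counts were 812 (4.56%), 25 (0.14%) and 481 (2.7%). The presence of peaks in these libraries chose the members, so the counts are a description and carry no test. Of the protein-coding genes, 5304 had a gene-end peak in at least 1 of the 8 libraries and 125 had one in each. Within the low-dose class 9 genes had peaks in 4 libraries at 0.6 U and none at 6 U, 50 in 3 and none, 213 in 4 and 1, and 457 in 3 and 1. Just outside it were 669 genes with peaks in 2 libraries at 0.6 U and none at 6 U, 797 in 2 and 1, 122 in 3 and 2, and 189 in 4 and 2. High-dose genes had peaks in 3 or 4 libraries at 6 U with 1 at 0.6 U (6 and 5 genes) or in 3 with none (3 genes). Just outside that class 56 genes had no library at 0.6 U and 2 at 6 U, 41 had 1 and 2, 19 had 2 and 3, and 5 had 2 and 4.

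**Figure D2:**
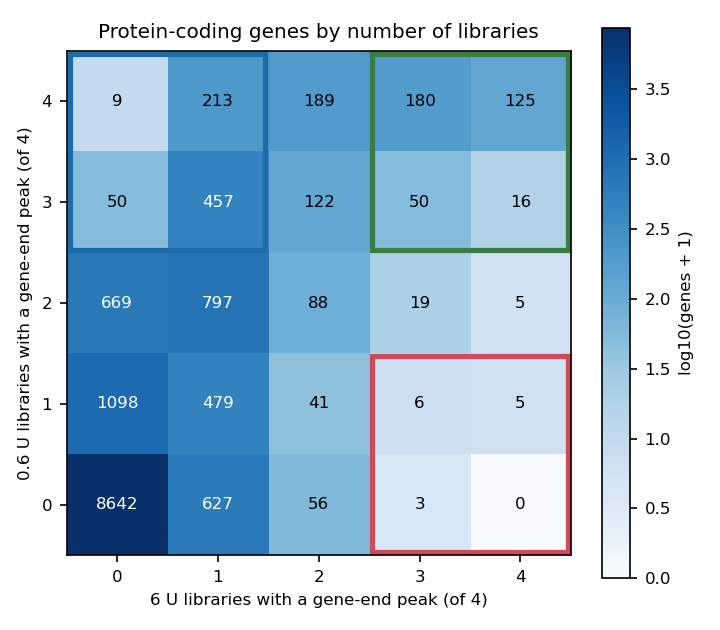
Protein-coding genes are counted by the number of 0.6 U libraries (vertical axis, of 4) and of 6 U libraries (horizontal axis, of 4) with a gene-end peak. Colour is log10 of the count plus 1, and frames mark the low-dose (blue), high-dose (red) and stable (green) classes. The low-dose frame is filled mainly by 457 and 213 genes with exactly 1 library at 6 U.

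The low-dose class was a contrast between 0.6 U and the 6 U libraries of Hia5 and Btr192IV. The 1 library allowed at 6 U was EcoGII for 668 of the 729 genes (91.6%) and Hia5 replicate 1 for 2 genes. No low-dose gene had a gene-end peak in Hia5 6 U replicate 2 or in Btr192IV 6 U, and 59 had none at 6 U. EcoGII at 6 U was also the library with the greatest depth and the longest list, and the part of depth in this count was not tested. At equal list length 128 genes were low-dose, of which 84 were among the 729, and EcoGII 6 U had a peak at 43 of those 128. With EcoGII left out at both doses, 428 genes were low-dose by the same rule, 238 of them shared with the 729. Leaving out 1 library in turn moved the count between 226 (without Hia5 0.6 U) and 1038 (without EcoGII 6 U).

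Within an enzyme, most gene-end peaks of Hia5 and Btr192IV seen at 0.6 U were missing from the 6 U list. Of 4096 protein-coding genes with a peak in Hia5 at 0.6 U, 660 had one in replicate 1 at 6 U (16.1%) and 466 in replicate 2 (11.4%), while 76 and 71 genes had one only at 6 U. Btr192IV kept 230 of 1310 genes (17.6%) and gained 34. EcoGII kept 2260 of 3225 (70.1%) and gained 1146. The 3 enzymes thus shared the direction of the gene-end share, while EcoGII lost a smaller share of its genes (965 of 3225) than the others. A test of that difference between enzymes was not possible with 1 EcoGII library per dose. Relative depth in EcoGII was 9.89 at 0.6 U and 25.5 at 6 U, and its part in this difference was not tested.

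The rule asks for at least 3 libraries at 0.6 U, so most low-dose genes had a peak in each 0.6 U list, fewer in the shorter lists. Of the 729 genes, 725 had a peak in Hia5 at 0.6 U, 713 in EcoGII, 522 in Btr192IV and 449 in EcoGI. The most frequent combinations were Hia5, EcoGII and Btr192IV at 0.6 U with EcoGII at 6 U (251 genes), all 4 at 0.6 U with EcoGII at 6 U (212) and Hia5, EcoGII and EcoGI at 0.6 U with EcoGII at 6 U (186). Their peaks were of middle rank. The median height percentile, where 100 is the highest peak of a list, was 65.4 in Hia5, 59.7 in EcoGII, 43.7 in Btr192IV and 36.3 in EcoGI at 0.6 U. For all genes with a gene-end peak it was 50.9, 51.0, 51.0 and 45.5 in the same order, and for low-dose genes in EcoGII at 6 U it was 74.1 against 67.6.

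Among the 9 low-dose genes with a gene-end peak in all 4 libraries at 0.6 U and in none at 6 U, Drat had the highest mean percentile. Its height percentiles at 0.6 U were 81.0 in Hia5, 58.6 in EcoGII, 60.5 in Btr192IV and 73.6 in EcoGI. The merged region there, from 7533401 to 7533860 on 2R (dm6), shares the end of Cyt-b5 and reached 1 library at 6 U outside the gene-end window of Drat. Trpm, the gene of a TRPM-family cation channel, had percentiles of 75.8, 54.3, 42.3 and 36.3 in the same order. Its region lies from 15308921 to 15309180 on 2R, inside the gene and close to its right end at 15309368. Each of the 4 libraries at 0.6 U had the Trpm peak and no library at 6 U did, and in Btr192IV and EcoGI it ranked below the middle of the list.

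Several of these genes came as neighbours on 1 region. Pp2A-29B, the scaffold subunit of protein phosphatase 2A, and CG17292 shared the region from 8370410 to 8370599 on 2L, with percentiles of 64.1 in Hia5, 52.2 in EcoGII, 32.0 in Btr192IV and 42.4 in EcoGI. The G-protein-coupled receptor genes mth (methuselah) and mthl10 shared the region from 342881 to 343180 on 3L, with 63.4, 66.1, 22.0 and 20.2. CG31224 shared the region from 18658901 to 18659160 on 3R with CstF64, a gene of mRNA 3' end cleavage, with 72.5, 49.8, 51.0 and 45.5. The remaining genes of this kind were mys, the beta integrin subunit gene, with 66.1, 57.7, 23.5 and 27.6 and, as at Drat, a peak of 1 library at 6 U in its region outside the window, and Tfb1, a TFIIH subunit gene next to Arc2, with 51.9, 47.4, 22.0 and 14.2. In all of them the Hia5 peak ranked above the Btr192IV and EcoGI peaks, whereas the EcoGII peak at CG31224 ranked slightly below that of Btr192IV.

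Of the low-dose genes with 4 libraries at 0.6 U and 1 at 6 U, the highest 3 had their 6 U peak in EcoGII. CG9932 had height percentiles of 98.5 in Hia5, 98.7 in EcoGII, 93.9 in Btr192IV and 91.1 in EcoGI at 0.6 U, and of 98.4 in EcoGII at 6 U. Rnb, whose region from 29798981 to 29799240 on 3R is shared with the effector caspase gene Drice, had 97.4, 96.1, 92.0 and 90.1 at 0.6 U and 98.2 in EcoGII at 6 U. Both were near the top of 5 lists and absent from both Hia5 replicates and from Btr192IV at 6 U. PH4alphaEFB, which encodes a prolyl 4-hydroxylase subunit, looked alike in its gene-end window, but the region there (30466521 to 30466780 on 3R) had a peak in each of the 8 libraries. Its Hia5 and Btr192IV peaks at 6 U fell outside the window. Altogether 18 low-dose genes had a stable region at an end, among them nub, vkg, MED7 and mRpL55.

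**Figure D3:**
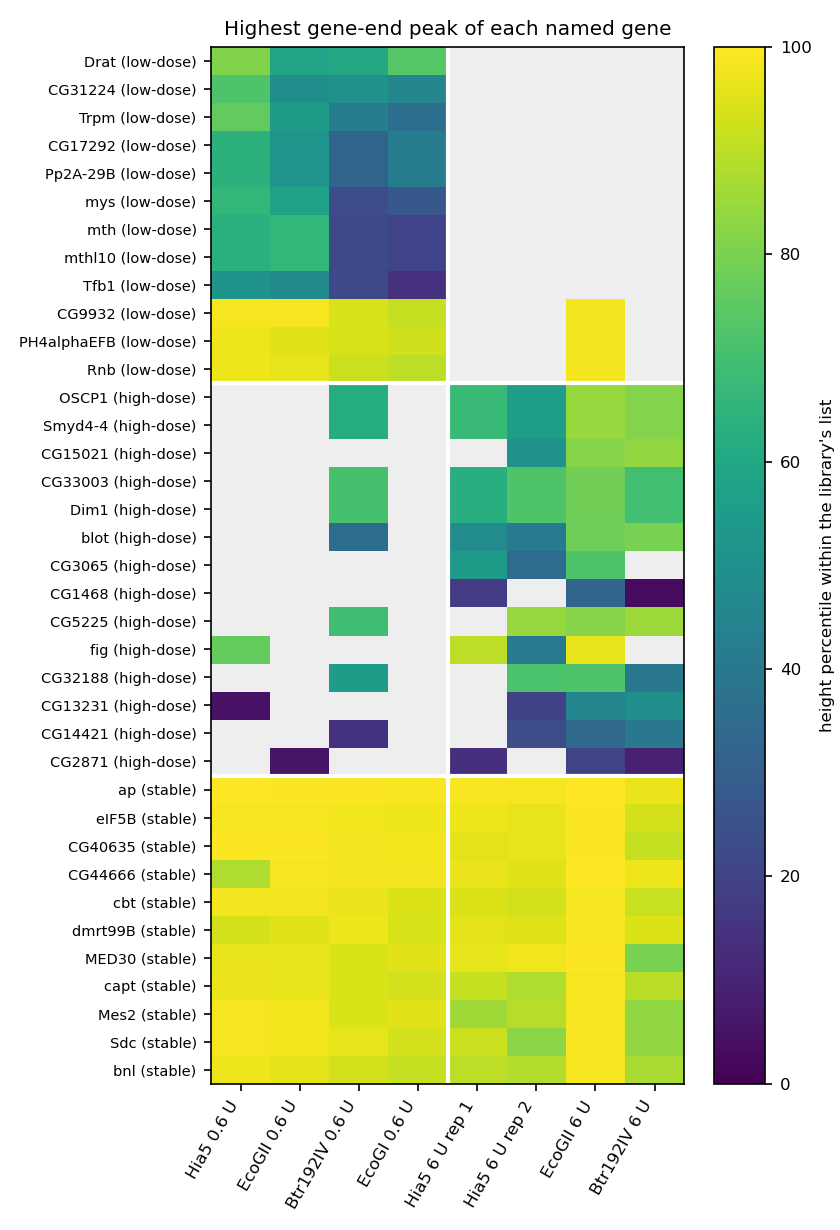
Rows are protein-coding genes named by rule in each class and columns the 8 libraries, with 0.6 U left and 6 U right of the white line. Colour is the percentile of the gene's highest gene-end peak among all peaks of that library, and grey means no gene-end peak. The stable genes shown lie at 79.7 or above in every list, and 3 low-dose genes with top-ranked peaks have them in EcoGII at 6 U as well.

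The Toll pathway is the NF-kappaB route of fly immunity and dorsoventral patterning. Of 9 Toll genes, 3 were low-dose (33.3%) and 2 stable (22.2%), beside 5.23% and 2.66% of all protein-coding genes. The lists here and below were chosen with earlier results of these data known, so their counts carry no test. The low-dose members were dl (dorsal, an NF-kappaB factor), cact (its IkappaB inhibitor) and tub (an adaptor of the receptor complex). The height percentiles of dl were 94.7 in Hia5, 95.1 in EcoGII, 88.7 in Btr192IV and 75.1 in EcoGI at 0.6 U, and 95.2 in EcoGII at 6 U. The stable members were spz, the ligand, and Tl, its receptor. Tl had 82.9, 63.9, 49.5 and 26.3 at 0.6 U and 37.4, 48.3 and 81.5 at 6 U in the Hia5 replicates and EcoGII, with no peak in Btr192IV. For spz the lowest of 7 percentiles was 70.3 and the highest 95.0. Of the other 4, Myd88 (an adaptor) had peaks in 4 libraries at 0.6 U and 2 at 6 U, pll (a kinase) in 2 and 0, Dif (an NF-kappaB factor) in 0 and 1, and nec (a serpin) in none.

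The JAK-STAT pathway carries cytokine signals to the nucleus. Of its 9 listed genes 3 were low-dose (33.3%, beside 5.23% of all protein-coding genes) and none stable. The low-dose ones were the cytokine gene upd2, the inhibitor gene Socs36E and Su(var)2-10, which encodes the fly PIAS protein. The merged region at upd2 had a peak in 5 libraries and was itself in no class. The receptor gene dome had peaks in 2 libraries at 0.6 U and 1 at 6 U, Stat92E had 1 at 0.6 U only, and hop, the kinase gene, had none. Socs36E had percentiles of 74.9 in Hia5, 61.7 in EcoGII and 65.1 in Btr192IV at 0.6 U and 84.7 in EcoGII at 6 U.

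Of all protein-coding genes 5.23% were low-dose and 2.66% stable. Polycomb and trithorax group genes, which hold genes in silent or active states, gave 4 low-dose (19.0%) and no stable members of 21. They were Psc and Pcl (Polycomb group), trx (a histone methyltransferase) and mor (a SWI/SNF subunit). Psc had the highest peaks, with 96.9 in Hia5, 96.2 in EcoGII and 85.2 in Btr192IV at 0.6 U and 95.0 in EcoGII at 6 U. Vacuolar ATPase genes, whose products acidify endosomes and lysosomes, gave 6 low-dose (18.2%) and no stable members of 33 (Vha13, Vha44, Vha55, VhaAC45, VhaM9.7-b and VhaPPA1-1). Of 12 cell death genes, 3 were low-dose (25%): Dark (the Apaf-1 homologue), Dronc (the initiator caspase) and Dcp-1 (an effector caspase). Each of the last 3 genes had peaks in all 4 libraries at 0.6 U and in EcoGII at 6 U only. Among the other members, Drice had peaks in 2 libraries at 0.6 U and 1 at 6 U and rpr in 4 and 2. The members hid, grim and skl had none. Of 24 cell cycle genes, CycA, aurA, dap and dup were low-dose (16.7%) and CycB was stable (4.17%).

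Developmental regulators were found in both classes, to which 5.23% (low-dose) and 2.66% (stable) of all protein-coding genes belonged. Of 24 Hox and segmentation genes, wg, en, Dfd and abd-A were stable and Scr was low-dose. Of 11 appendage regulators, ap, vg and Dll were stable and bab2 and dac were low-dose. Glycolysis gave Pgk, Tpi and Hex-A as stable members of 13 and no low-dose member. JNK and AP-1 genes gave kay (fly Fos) and Atf3 as stable of 9, and 2 of 10 clock genes (Pdp1 and dco) were stable, with no low-dose member in either list. The hemocyte genes gave Col4a1 and zfh1 as stable and vkg, with the limit above, as low-dose. The untreated library had a peak at Col4a1, at Dfd and at the low-dose gene CycA.

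Signalling lists of other kinds held both classes. The EGF receptor and RTK list gave 2 low-dose members of 19 (kek1 and pnt) and 3 stable ones. These were sty, rho and the zinc finger gene cbt, whose place in this list is uncertain. The Wnt, Notch, Hedgehog and BMP list gave fz, pan and ptc as low-dose and N, Med and brk as stable of 17. A merged region at pan had a peak in 6 libraries and was itself in no class. Of 14 ecdysone response genes, ftz-f1 and usp were low-dose. Cytoplasmic ribosomal protein genes gave 6 low-dose members (RpL3, RpL29, RpLP0, RpS4, RpS9 and RpS20) and 1 stable member (RpL7) of 86. These shares of 6.98% and 1.16% stand beside 5.23% and 2.66% of all protein-coding genes. Those of mitochondrial ribosomes gave mRpL55 and mRpL35 of 74, 1 in each class. Proteasome genes gave Rpn13 and Rpt3R as low-dose and Rpn8 as stable of 48.

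The remaining lists held few members, and the shares over all protein-coding genes were 5.23% low-dose and 2.66% stable. The Mediator and basal transcription list gave skd and MED7 as low-dose of 33. It did not hold the stable gene MED30 or the low-dose gene Tfb1. Of 13 remodelling ATPase genes Ino80 was low-dose. Muscle markers gave how as low-dose and Mef2 as stable of 13, and gut markers gave nub as low-dose of 6. Of 14 Imd genes imd was stable, of 14 cytoskeleton genes betaTub60D, and of 19 heat shock genes Hsp70Ba, which has near-identical copies and is uncertain. Of 186 chemoreceptor genes Gr63a and Or46a were low-dose, each on a region shared with other genes (Lamtor4 and Ccz1, and CG18011), as was Obp28a next to Ziz of 51 odorant-binding protein genes. Of 116 cuticle protein genes Cpr49Ab was stable. Neuronal, germline and fat body markers, insulator proteins and dosage compensation genes had no member in any class, and no list had a high-dose member.

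Small RNA genes were counted among all genes. Of 260 miRNA genes, 7 were low-dose (2.69%) and 3 stable (1.15%), beside 4.56% and 2.7% of all genes. The low-dose gene mir-34 had height percentiles of 95.8 in Hia5, 88.5 in EcoGII, 90.8 in Btr192IV and 87.0 in EcoGI at 0.6 U and 95.6 in EcoGII at 6 U, on a region shared with mir-277. Its peaks were near the top of 5 lists and absent from the other 3. The gene mir-279 had 73.1, 67.6 and 52.4 in Hia5, EcoGII and Btr192IV at 0.6 U and no peak at 6 U. The other low-dose ones were mir-3645, mir-4949, mir-4968, mir-9374 and mir-9377, each with 1 library at 6 U. The stable ones were mir-9388, on the region of Mes2, and mir-10404-4 and mir-10404-5, which lie in ribosomal DNA repeats and are uncertain. Of 295 tRNA genes 4 were low-dose (1.36%) and 4 stable (1.36%). The low-dose ones were 2 alanine genes, tRNA:Ala-AGC-2-7 and tRNA:Ala-AGC-2-8, with the same percentiles in each library, and tRNA:Ser-CGA-1-4 and tRNA:Val-AAC-2-1, again with the same percentiles.

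Length, neighbours and control peaks were not used by the rule and are given as a description. The low-dose genes' median length was 3842 bp, against 4812 bp for stable genes and 2161 bp for all protein-coding genes. Of the low-dose genes 84.8% had an end within 500 bp of another coding gene's end, against 64.7% of the stable genes and 70.9% of all. Most carried the peak at a single end, as in Hia5 at 0.6 U, where 652 of 725 had it at 1 end and 73 at both. Of the 729 genes, 682 had a low-dose region at an end, and these were 487 different regions, so that many genes share their evidence with a neighbour. An untreated peak lay at an end of 1.78% of the low-dose, 10.5% of the stable and 1.31% of all coding genes. No low-dose gene lay on Y and 7 lay on chromosome 4.

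The 14 high-dose genes had a median length of 1367.5 bp, and 9 of 14 were known only by a CG number (64.3%, beside 43.8% of all protein-coding genes). OSCP1 and Smyd4-4, neighbours on the region from 12142988 to 12143222 on 2R, had height percentiles of 67.9 and 55.8 in the Hia5 replicates, 84.7 in EcoGII and 81.6 in Btr192IV at 6 U. At 0.6 U the region had a peak in Btr192IV only, at 61.9. CG33003 and Dim1, which encodes a spliceosome component, shared the region from 4402621 to 4402857 on 2L, with 62.9, 72.6, 78.5 and 69.8 at 6 U and 70.8 in Btr192IV at 0.6 U. Both pairs were present in each 6 U library and in the Btr192IV list of either dose.

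The gene blot, a member of the sodium-dependent neurotransmitter symporter family, had percentiles of 48.3, 41.0, 77.8 and 79.7 at 6 U and 35.3 in Btr192IV at 0.6 U. Without a gene-end peak at 0.6 U were CG15021 (51.0 in Hia5 replicate 2, 82.0 in EcoGII and 84.0 in Btr192IV at 6 U), CG3065 (54.3 and 35.1 in Hia5 and 72.5 in EcoGII) and CG1468. The region at CG15021 had a peak of 1 library at 0.6 U outside the window. The 3 peaks at CG1468 stood at 17.2 in Hia5 replicate 1, 32.8 in EcoGII and 3.12 in Btr192IV and fell into 2 regions, so no region there was high-dose. The gene fig, which lies inside kay, had 90.2, 41.0 and 96.5 at 6 U in the Hia5 replicates and EcoGII and 76.2 in Hia5 at 0.6 U. Its ends held 4 merged regions, none of them high-dose, so these peaks need not mark a single site. The remaining 5 genes were CG5225, CG32188, CG13231, CG14421 and CG2871. The region at CG5225 was itself stable, with a peak in 7 libraries, and an untreated peak lay there.

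The high-dose class depended on single libraries more than the others. EcoGII 6 U had a peak at all 14 genes, Hia5 replicate 2 and Btr192IV at 12 each and Hia5 replicate 1 at 9. The 1 library allowed at 0.6 U was Btr192IV for 8 of 14 genes, Hia5 for 2 and EcoGII for 1. The count was 5 without EcoGII 6 U, 7 without Hia5 6 U replicate 2, 7 without Btr192IV 6 U and 30 without Hia5 0.6 U, and at equal list length it was 35, with 5 of them among the 14. With windows of 200 bp it was 6.

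Stable genes had a higher median height percentile than all genes with a gene-end peak in each of the 8 libraries. Their median height percentile was 84.9 in Hia5, 78.0 in EcoGII, 71.6 in Btr192IV and 65.5 in EcoGI at 0.6 U. At 6 U it was 67.0 and 57.3 in the Hia5 replicates, 90.8 in EcoGII and 56.3 in Btr192IV, beside 58.5, 52.9, 67.6 and 52.2 for all such genes. Of the 371 genes, 150 were present in all libraries except Btr192IV 6 U and 125 in all 8. Hia5 kept 345 and 344 of 363 stable genes from 0.6 U to the 6 U replicates and EcoGII kept 361 of 361, while Btr192IV kept 181 of 357. The rule itself asks for a peak in at least 3 libraries of each dose, so high values here follow largely from the rule. At equal list length 155 genes were stable. The count was 131 without EcoGII at both doses, and 164, 160 and 141 without Hia5 6 U replicate 1, Hia5 6 U replicate 2 and EcoGII 6 U in turn.

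The highest stable gene was ap (apterous), a selector gene of the dorsal wing that encodes a LIM-homeodomain protein. Its height percentiles were 99.7 in Hia5, 99.6 in EcoGII, 99.3 in Btr192IV and 98.97 in EcoGI at 0.6 U, and 98.98, 98.6, 99.8 and 97.2 in the Hia5 replicates, EcoGII and Btr192IV at 6 U. The region lies from 5726741 to 5727280 on 2R, at the right end of the gene, with no control peak. All 8 libraries had ap among the top few percent of their peaks, and the doses overlapped. The zinc finger gene cbt (cabut) had 98.3, 98.1, 97.3 and 94.6 at 0.6 U and 94.6, 93.3, 98.7 and 91.7 at 6 U.

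Other genes in the first 12 without an untreated peak at an end were Mes2, the syndecan gene Sdc and bnl (branchless, an FGF). Percentiles of bnl ran from 91.1 to 97.6 at 0.6 U and from 87.3 to 98.5 at 6 U. Those of Sdc ran from 93.1 to 98.6 at 0.6 U and from 82.6 to 98.8 at 6 U. Genes with an untreated peak at an end were also among the first 12, such as eIF5B (a translation initiation factor), dmrt99B (a DM-domain factor), MED30 (a Mediator subunit), capt (an actin regulator), CG44666 and CG40635. CG40635 lies on Y among near-identical Su(Ste) repeats, so its peaks cannot be placed with certainty.

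The classes were also counted in the 9 treated libraries and 2 controls of the same series that the rule did not use. No label states that these came from separate cultures. Low-dose genes had a gene-end peak at 2 U in 77.6% and 84.4% of cases in the Hia5 replicates, 94.0% in EcoGII and 81.5% in Hin1523, a further enzyme. The share was 31.4% in Btr192IV and 33.5% in EcoGI at 2 U. Over all coding genes the shares were 17.6%, 17.7%, 26.9%, 17.2%, 7.01% and 7.01% in the same order. Above 6 U the low-dose genes were near or below the level of all genes, with 3.43% against 3.40% at Hia5 20 U, 0.137% against 0.774% at 60 U and 3.29% against 3.89% at 200 U. In the untreated library the share was 1.78% (95% Wilson interval 1.05 to 3.03, counting error only).

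Stable genes were present at 2 U in 85.4% (EcoGI) to 98.1% (Hia5 replicate 2) of cases. In Hia5 lists of higher dose 60.1% (20 U), 17.0% (60 U) and 20.8% (200 U) of them had a peak. Over all coding genes these shares were 3.40%, 0.774% and 3.89%, and the lists held 2494, 772 and 4054 peaks. High-dose genes numbered 10 of 14 at 20 U, 5 at 60 U and 9 at 200 U. At 2 U they numbered between 2 (EcoGII, beside 26.9% of all coding genes) and 8 (Hin1523, beside 17.2%). In the input, with 32 peaks, none of the 13946 protein-coding genes had a gene-end peak, so this list cannot tell the classes apart.

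**Figure D4:**
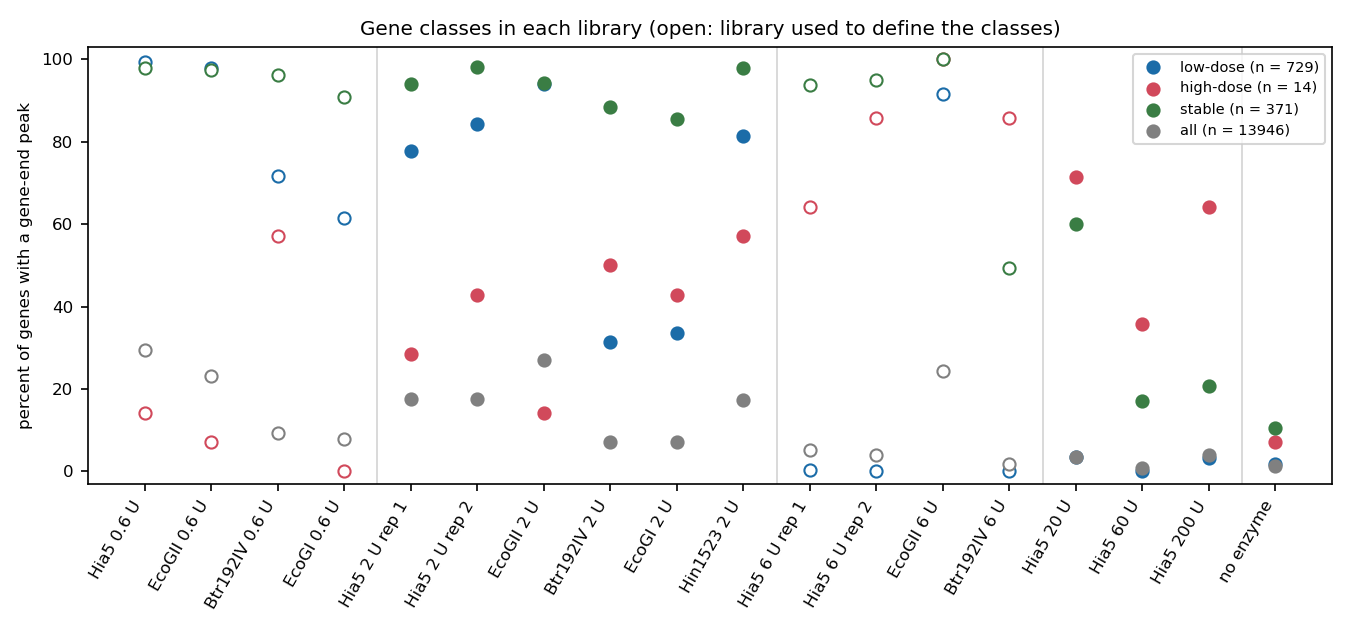
Each point is the percent of the genes of a class, or of all protein-coding genes, with a gene-end peak in 1 library, and libraries are ordered by dose. Open points mark the 8 libraries that defined the classes, and filled points the libraries they did not use. Low-dose genes reach 94.0% in EcoGII at 2 U and fall near the level of all genes at Hia5 20 U and above, while 60.1% of the stable genes keep a peak at 20 U.

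Merged regions showed where the 2 doses differed outside the gene-end windows. Of 16996 regions, 1125 were low-dose (6.62%), 203 were high-dose (1.19%) and 1160 were stable (6.83%). At equal list length 303 regions were low-dose, of which 221 overlapped one of the 1125, and 150 were high-dose, of which 24 overlapped one of the 203. Again the 1 library allowed at 6 U was EcoGII for 1050 of the 1125 low-dose regions. Gene ends held 52.5% of the low-dose regions (95% Wilson interval 49.6 to 55.4, counting error only), 11.3% of the high-dose regions (7.67 to 16.4), 37.5% of the stable regions and 34.5% of all regions. Outside genes lay 7.64%, 39.4%, 20.1% and 20.1%. The median widths were 300 bp for low-dose, 224 bp for high-dose and 320 bp for stable regions.

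Control peaks were unevenly spread over these regions. An untreated peak overlapped 2.76% of the low-dose regions (1.95 to 3.88), 14.8% of the high-dose regions (10.6 to 20.3), 24.8% of the stable regions (22.4 to 27.5) and 7.93% of all regions. Input peaks overlapped 31 stable regions and none of the low-dose or high-dose ones. Of the regions with neither control peak, 53.0% of the low-dose, 12.7% of the high-dose and 42.3% of the stable ones lay at gene ends. High-dose regions had a peak in 72.9% of cases at Hia5 200 U, 53.7% at 20 U and 32.5% at 60 U, libraries that the rule did not use, against 12.5%, 12.02% and 4.06% of all regions. Whether background methylation has a part in the high-dose regions was not tested.

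**Figure D5:**
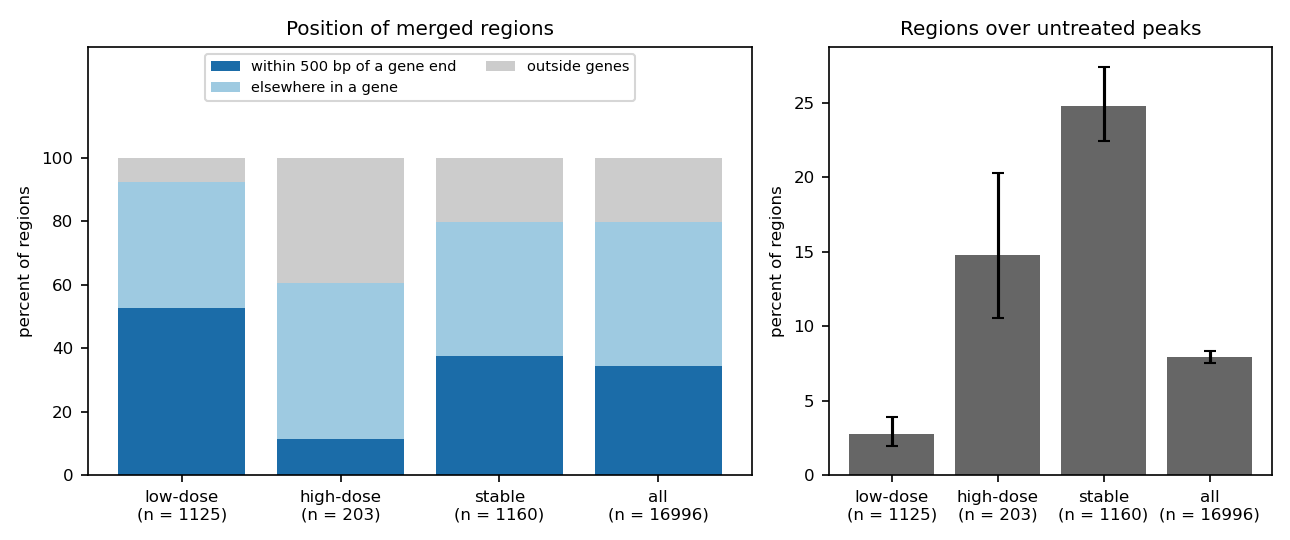
The left panel splits the merged regions of each class into gene ends (within 500 bp), the rest of genes, and outside genes, in percent of regions. The right panel gives the percent of regions that overlap a peak of the untreated library, with 95% Wilson intervals as bars. Low-dose regions lie at gene ends in 52.5% of cases and high-dose regions in 11.3%, and 24.8% of stable regions overlap an untreated peak.

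Only 9 regions had a peak in all 4 libraries at 0.6 U and none at 6 U. The highest lay inside Trl, the gene of the GAGA factor, from 14758861 to 14759140 on 3L, with height percentiles of 86.7 in Hia5, 88.1 in EcoGII, 52.4 in Btr192IV and 36.3 in EcoGI. The gene Trl had no gene-end peak in any of the 8 libraries, so only the regions show this site. Others of the 9 lay inside omd and flfl (13684541 to 13685228 on 3R), inside Rgl (13918215 to 13918443 on 3L) and inside Raf, the MAP kinase kinase kinase gene (2335301 to 2335567 on X). The last had 49.8, 61.7, 23.5 and 19.1 in the same order. All 9 ranked lower in EcoGI than in Hia5.

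In the opposite direction 6 regions had a peak in all 4 libraries at 6 U and none at 0.6 U. The first lay inside nAChRalpha6, a nicotinic acetylcholine receptor subunit gene, from 9803757 to 9803921 on 2L, with 68.8 and 42.8 in the Hia5 replicates, 83.8 in EcoGII and 76.3 in Btr192IV. The second lay inside Blimp-1, a zinc finger repressor gene, from 5644270 to 5644427 on 3L, with 66.0, 57.3, 67.2 and 70.7. A region inside gpp, a histone methyltransferase gene, overlapped an untreated peak. The other 3 lay at lncRNA:CR43437 on chromosome 4 (426121 to 426380) and outside genes on 2R (7225018 to 7225203) and 3L (4010618 to 4010785). Another region of the same class lay within 2000 bp of 11.3% of the 203 high-dose, 19.4% of the 1125 low-dose and 26.4% of the 1160 stable regions, and the classes differ in size. Chromosome Y held 8 of the high-dose regions (3.94%), beside 0.471% of all regions.

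The 5 tallest stable regions lay on X between 23216041 and 23472600, and each also had an untreated and an input peak. Of these regions 3 lay in or at rRNA pseudogenes and 2 outside annotated genes, and all 5 had a peak in each of the 17 treated libraries of the series. Ribosomal RNA genes are repeated, so peaks there cannot be placed with certainty. Of the 500 regions with a peak in all 8 libraries, 166 overlapped an untreated peak, 30 an input peak and 333 neither. The highest of the 333, chosen after their values were seen, lay inside sty (sprouty, whose product restrains FGF and EGF receptor signalling) from 3418341 to 3418900 on 3L, with percentiles of 99.7 in Hia5, 99.5 in EcoGII, 99.2 in Btr192IV and 98.9 in EcoGI at 0.6 U. At 6 U they were 98.9, 98.6, 99.7 and 97.8. The next ones were the ap region, 3 regions near or in lncRNA:CR43334 between 626761 and 633700 on 3L, and a region in lncRNA:CR44953 from 29757401 to 29757800 on 3R.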

How the data were processed

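The authors deposited 1 peak list per library, which the file names mark as filtered at an FDR of 5%. Each deposited peak carries a height in a signal whose scale is not given in the sources used here. Per the submitters' processing notes, reads were handled with BWA 0.7.12 and SAMtools 1.2. The same notes name the builds dm6, which is the fly's, and GRCh38. The peak caller is not given in the sources used here. Heights were compared only within a list, as percentiles. In each list they were whole multiples of 1 step (tolerance 0.05 of a step), and the inverse of that step is the relative depth, so that no number of reads is known.

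Genes came from a RefSeq table of the same release 6 assembly (17807 genes on 7 chromosomes). That table gives no strand or sequence, so both ends of a gene were used with 500 bp on either side and a minimum overlap of 1 bp. The 5' ends alone, exons, motifs and promoter sequence were not analysed here. Peaks of the 8 libraries that shared at least 1 bp were merged into regions.

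The 5 library measures were compared between doses by exact two-sided permutation of the library labels on the absolute difference of means (70 arrangements for 4 libraries against 4), with Benjamini-Hochberg adjustment. The classes and lists (35) were described by counts, since the members and lists were chosen with earlier results of these data known. The gene Rcd1, which had no peak in the 8 libraries, was taken out of the germline list after its values were seen, because it is no germline marker. Named genes were the 12 first coding genes of each class by library count and then by height percentile, every list member in the low-dose or high-dose class and up to 4 stable members per list. Named regions were the 5 first of each class, with ties in library count kept. The remaining 2 high-dose genes were named after their values were seen, and 1 stable gene is not reported here. The scripts were tested on simulated data. Python 3.11.15, NumPy 2.4.6, pandas 2.3.3, SciPy 1.17.1 and Matplotlib 3.10.9 were used.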

Additional observations from a re-analysis of the deposited data

Results flagged for a closer look

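At 6 U the EcoGII library lay far above the other 3 libraries of its dose in 3 of the measures examined. It held 13395 peaks, covered 2883 kb and had a gene-end peak at 3406 protein-coding genes, and in each case its gap to the next library divided by the range of the 4 was above the critical value for 4 libraries (0.880, 0.886 and 0.850). Of 18 groups of 4 libraries examined in this way, 3 stood out, all through this library. These 3 measures all rise with list length, so they cannot be set as separate signs against a chance rate of about 1 in 20. The log2 number of peaks and relative depth at 6 U, examined in the same way, did not stand out. The number of peaks changed in opposite directions between enzymes. On the log2 scale the change from 0.6 U to 6 U was -1.500 in Hia5 replicate 1, -1.92 in Hia5 replicate 2, -1.37 in Btr192IV and 0.98 in EcoGII. The share of peaks over untreated peaks changed by 15.3 and 13.9 percentage points in the Hia5 replicates, by 11.3 in Btr192IV and by -0.43 in EcoGII. Neither difference between enzymes was tested, since EcoGII and Btr192IV have 1 library per dose. Relative depth was 25.5 in EcoGII at 6 U and at most 11.9 in the other 7 libraries.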

How the results depend on the processing

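No paired analysis was possible because the 0.6 U libraries carry no replicate number, and samples could be matched by enzyme only. With enzyme as a block (12 arrangements, smallest p 0.0833) the gene-end difference was -16.5 percentage points (exact permutation p = 0.0833, adjusted p = 0.208). Over all alternatives, left-out libraries included, the 5 library measures kept their direction. Lists of equal length brought the gene-end difference (-6.19 points), the intergenic difference (6.96) and the overlap with untreated peaks (7.56) past the threshold (exact permutation, adjusted p = 0.0476 each). With enzyme as a block none of these could pass, given the smallest p above. Chosen after seeing the data, equal lists with 1 library left out kept the direction. The gene-end, intergenic and overlap differences passed at -7.89, 7.59 and 8.01 points without Hia5 6 U replicate 1, -6.37, 7.71 and 7.96 without replicate 2, and -7.21, 7.59 and 8.62 without EcoGII 6 U, where width also passed (-96.75 bp). None of the 3 passed without Btr192IV 6 U (-3.30, 4.97 and 5.65) or without a library of 0.6 U. The counts of genes and regions moved more. They are given as low-dose, high-dose and stable genes and then regions. Windows of 200 bp gave 471, 6 and 193 genes, and windows of 1000 bp gave 26 high-dose and 586 stable genes. Whole genes gave 55 high-dose and 925 stable genes. Lists of equal length gave 128, 35 and 155 genes, 303 low-dose (221 over a low-dose region of the full lists), 150 high-dose (24 so) and 575 stable regions. Requiring all libraries of a dose and none of the other gave 9, 0 and 125 genes and 9, 6 and 500 regions. Chosen after seeing the data, leaving out EcoGII at both doses gave 428, 8 and 131 genes, 68 high-dose and 522 stable regions. Allowing no library of the other dose, also chosen after seeing the data, gave 59 low-dose and 3 high-dose genes and 74 regions of each kind. With each library left out in turn the counts ran from 226 to 1038, 5 to 30 and 141 to 339 genes, and from 411 to 1810, 49 to 322 and 579 to 1028 regions. A left-out library leaves fewer to meet the same count, and stricter rules can give fewer members by construction. For the other changes the cause was not tested. The alternative with 5' ends alone was not run, since the gene table has no strand.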
